A study of Homo sapiens and Mus musculus with 69 samples.

Results

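The TGF-β ligands, receptors and SMADs were followed through every human and mouse small cell lung cancer (SCLC) group of the series. The 10 genes were taken by symbol as fixed members of the pathway and not by a cut on their values, though with earlier results of these data known. They were the ligands *TGFB1*, *TGFB2* and *TGFB3*, the receptors *TGFBR1*, *TGFBR2* and *TGFBR3*, the SMADs *SMAD2*, *SMAD3* and *SMAD7*, and the target gene *TGFBI*. All 10 were found among the 20516 genes of the human table, and their mouse counterparts among the 18501 genes of the KP1 table. TGF-β ligands are secreted in a latent form and, once released, bring the type II receptor TGFBR2 together with the type I receptor TGFBR1, while TGFBR3 (betaglycan) presents ligand at the cell surface. The receptor complex phosphorylates SMAD2 and SMAD3, which enter the nucleus with SMAD4 and act on target genes, and SMAD7 is an inhibitor induced by the same signal. The pathway is known in epithelial cells for growth arrest and for epithelial-mesenchymal transition (EMT), and many carcinomas lose or silence a receptor.

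The study asked what Notch signaling does to neuroendocrine (NE) SCLC cells and used bulk RNA-Seq of 69 libraries in 23 groups of 3 libraries each. H82, H524 and H69 cells were analysed as parental cells and with a doxycycline-inducible vector for *N1ICD*, the active intracellular part of NOTCH1, without and with doxycycline (1 μg/mL, at least 28 days, after which the adherent cells were collected). COR-L88 cells and the mouse line KP1, which derives from an *Rb1*/*Trp53* mutant tumor, received DMSO, the LSD1 inhibitor TAS1440 (100 nM, for 28 days in COR-L88 and over 28 days in KP1 cells), which activates Notch signaling, or TAS1440 together with a γ-secretase inhibitor (GSI) that blocks Notch cleavage (BMS-708163, 2 μM, in COR-L88 cells and DBZ, 10 μM, in KP1 cells). The remaining groups were H82 *N1ICD* cells with *REST* KO and with *STING* KO, each without and with doxycycline, H524 cells with an inducible vector for *REST*, a repressor of neuronal genes, without and with doxycycline, and COR-L88 cells with *STING* KO on DMSO or TAS1440. The KO cells were made by CRISPR-Cas9 and the labels do not say which clone was sequenced, the labels give no times, and the human libraries carry 1 running number each, by which they are named here. Because cells grown with doxycycline were collected as the adherent fraction, induction and selection of adherent cells cannot be told apart, nor can, in bulk RNA, fewer cells of a type and less RNA per cell.

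All levels are the deposited log2(RPKM + 1) values, where RPKM is the number of reads corrected for gene length and library size, after scaling by the trimmed mean of M values (TMM). Differences are on the same log2 scale, which understates the change of genes near 0. Groups were compared with limma, a linear model fitted here to each cell line, or to all human libraries together where lines were compared, over genes that reached a level of 1 in 3 or more of those libraries. Where 2 responses were compared, their difference was tested as an interaction term. Two-sided *P* values were corrected across every gene in a fit by the Benjamini-Hochberg method, and a gene was called higher or lower at an adjusted *P* under 0.05 with a log2 difference of at least 1 in size. Nothing in the labels says that the 3 libraries of a group came from separate cultures, so *P* values measure the spread between these libraries only.

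Promoter windows of the 3 members, a ligand, a receptor and a target, are shown first, because RBPJ and SMAD complexes act at sites of these kinds. For *TGFB2*, *TGFBR2* and *TGFBI* the 250 bases before the first start site listed by RefSeq (GRCh38.p14) are given 5′ to 3′ on the strand of the gene. Capitals mark matches on either strand to the letters TGGGAA (core of the site of RBPJ, the DNA-binding partner of NOTCH1), CAGAC (SMAD element), TGANTCA (AP-1 element) and GGGCGG (GC box), none of which overlapped another in these windows.
TGFB2 (chr1:218345086-218345335, + strand): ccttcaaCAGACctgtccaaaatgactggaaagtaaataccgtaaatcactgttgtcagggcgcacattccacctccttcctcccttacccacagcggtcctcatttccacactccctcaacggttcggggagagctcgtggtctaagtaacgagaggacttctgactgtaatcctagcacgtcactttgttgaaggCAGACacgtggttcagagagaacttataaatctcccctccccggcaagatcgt
TGFBR2 (chr3:30606106-30606355, + strand): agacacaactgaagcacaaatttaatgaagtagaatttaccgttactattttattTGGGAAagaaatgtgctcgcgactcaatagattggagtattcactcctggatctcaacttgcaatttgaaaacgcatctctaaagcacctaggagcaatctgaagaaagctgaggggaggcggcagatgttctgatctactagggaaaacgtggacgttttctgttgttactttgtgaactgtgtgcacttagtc
TGFBI (chr5:136028738-136028987, + strand): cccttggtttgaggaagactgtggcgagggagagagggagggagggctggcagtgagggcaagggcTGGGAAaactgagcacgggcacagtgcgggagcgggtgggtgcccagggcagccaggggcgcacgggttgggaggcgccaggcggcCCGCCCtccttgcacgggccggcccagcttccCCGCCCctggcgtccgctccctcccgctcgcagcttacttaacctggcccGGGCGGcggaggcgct
The *TGFB2* window held CAGAC at 243 and 53 bases before the start. In the *TGFBR2* window the single match was to TGGGAA, at 195 bases before the first of its 2 listed starts. *TGFBI* had TGGGAA at 184 bases and the GC box at 98, 66 and 16 bases. Among the first-start windows of all 10 members, 2 held TGGGAA, 4 held CAGAC, 0 held TGANTCA and 5 held GGGCGG, beside 20.8%, 38.0%, 6.57% and 42.6% of all 35116 windows of the same length. A match is a stretch of letters and not a measured binding site.

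Several facts of the libraries bear on these genes. Library size, readable only as a relative value from the smallest steps of the table, was 0.693 to 1.54 times the median in the human and 0.871 to 1.06 times in the KP1 libraries. Library 4 (H82 *N1ICD* without doxycycline) correlated best with a parental library, libraries 20 and 21 (parental H524) with H524 *REST* cells without doxycycline, and the 3 KP1 TAS1440 libraries resembled each other least, at *r* of 0.902 to 0.944. The labels were checked by *NOTCH1*, which was higher with doxycycline in all *N1ICD* lines but reached 8.75 to 10.74 in H82 cells with *REST* KO against 4.26 to 5.56 without, and by *REST* in H524 *REST* cells with doxycycline (6.87, 10.72 and 9.43). *TMEM173*, which encodes STING, was no lower with *STING* KO in H82 cells with doxycycline (1.27, 1.53 and 2.04 against 1.07, 1.17 and 1.10) and lower in COR-L88 cells with TAS1440 (1.16, 1.09 and 0.96 against 2.54, 2.04 and 2.03), so these are called the libraries labelled *STING* KO. Gene-level mRNA need not fall after a CRISPR frameshift, so neither value checks the protein. The study shows immunoblots of single-cell *STING* KO clones of both lines, but the labels do not say which clone was sequenced. A list of NE genes (*NEUROD1*, *INSM1*, *CHGA*, *SYP* and *NCAM1*, 5 of 5 measured) summed to 8630 to 22031 RPKM without and 23.7 to 48.2 with doxycycline in H82 *N1ICD* cells, 11921 to 25437 and 590 to 1465 in H524, 974 to 2082 and 11.6 to 12.2 in H69, and 245 to 270 with DMSO and 66.8 to 102 with TAS1440 in COR-L88. A list of 6 fibroblast genes, which holds the target gene *COL1A1*, moved the other way, from the range 1.03 to 49.4 to the range 1105 to 2142 RPKM in H82, from the range 0.897 to 3.59 to the range 4227 to 6076 in H524, from the range 0.859 to 3.96 to the range 13703 to 14416 in H69 and from the range 1.33 to 2.35 to the range 4.07 to 8.27 in COR-L88. In KP1 cells the NE list summed to 219 to 326 RPKM with DMSO, 0.450 to 33.2 with TAS1440 and 298 to 324 with TAS1440 and GSI, and the fibroblast list to 0.471 to 1.40, 15.4 to 300 and 0.513 to 6.76. The highest log2 values of the fibroblast genes in any human library were 0.67 for *PDGFRA*, 3.80 for *DCN*, 5.45 for *LUM*, 7.62 for *PDGFRB*, 11.09 for *COL1A1* and 13.56 for *COL3A1*, those of *DCN*, *LUM* and both collagens in H69 cells with doxycycline and that of *PDGFRB* in H82 *REST* KO cells with doxycycline. Outside H69 cells with doxycycline *DCN* reached at most 0.74. In KP1 cells all 6 were highest with TAS1440, at 3.82 for *Pdgfra*, 3.02 for *Dcn*, 0.89 for *Lum*, 3.94 for *Pdgfrb*, 2.73 for *Col1a1* and 8.07 for *Col3a1*. The immune list stayed at or under 8.32 RPKM and the endothelial list at or under 0.521 RPKM in every library, with *PTPRC* at most 0.38 in human cells.

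In the 5 main comparisons, *N1ICD* induction in H82, H524 and H69 cells and TAS1440 in COR-L88 and KP1 cells, calls fell on the ligands, *TGFBR2*, *TGFBR3*, *SMAD3*, *SMAD7* and *TGFBI*, with *TGFBR1* called once and *SMAD2* never. *TGFBR2* rose in all 4 human lines, *TGFB1*, *SMAD3* and *SMAD7* in 3 of them each, and *TGFBI* in 3 while it fell in H524. With *N1ICD* in H82 cells 5 of 10 members tested rose and 0 fell, beside 14.7% and 12.4% of all genes tested, and without library 4 a sixth member, *TGFB1*, was called, as lower. In H524 the counts were 5 and 1 of 9 (background 11.4% and 7.19%), and in H69 5 and 1 of 9 (21.4% and 20.4%). TAS1440 raised 6 of 9 members in COR-L88 and lowered 0 (15.3% and 7.46%, or 2011 and 980 genes, against 1698 and 1320 after quantile normalization), and in KP1 it raised 4 of 6 and lowered 0 (9.09% and 9.70%). The median log2 difference of the members tested was 1.07, 1.49, 1.44, 1.56 and 1.24 in H82, H524, H69, COR-L88 and KP1, beside medians over all genes of 0.00, -0.02, 0.08, 0.01 and 0.02. Members too low to be tested in a line, and so outside these counts, were *TGFB2* in H524, *TGFBR3* in H69, *TGFB3* in COR-L88 and *Tgfb2*, *Tgfbr2*, *Tgfbr3* and *Tgfbi* in KP1. A gene was tested in a line where at least 3 libraries reached 1 on the log2 scale, and some members would not have met this without the libraries with doxycycline or TAS1440, a condition that itself selects for a difference. They were all 4 members that rose in KP1, *TGFBR2* in H82, H524 and H69, *TGFB3* in H69 and *TGFBR3* and *SMAD3* in H524. In COR-L88 they were *TGFB1*, *TGFBR2* and *TGFBR3*, where the libraries with TAS1440 and GSI count as libraries with TAS1440. The counts and medians above therefore lend these rises no weight. The same limit holds for these members in the later counts within the same lines. Without the filter, over all 10 members, 5, 5, 5, 6 and 5 were called higher and 0, 1, 1, 0 and 0 lower in H82, H524, H69, COR-L88 and KP1, beside 9.81%, 7.54%, 14.3%, 9.98% and 4.32% and 8.24%, 4.45%, 13.5%, 4.70% and 4.24% of all genes, with medians of 1.07, 1.21, 1.07, 1.31 and 0.93. These shares also count genes at or near 0 in every library, which cannot be called, and so lie below the shares over filtered genes.

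**Figure D1:**
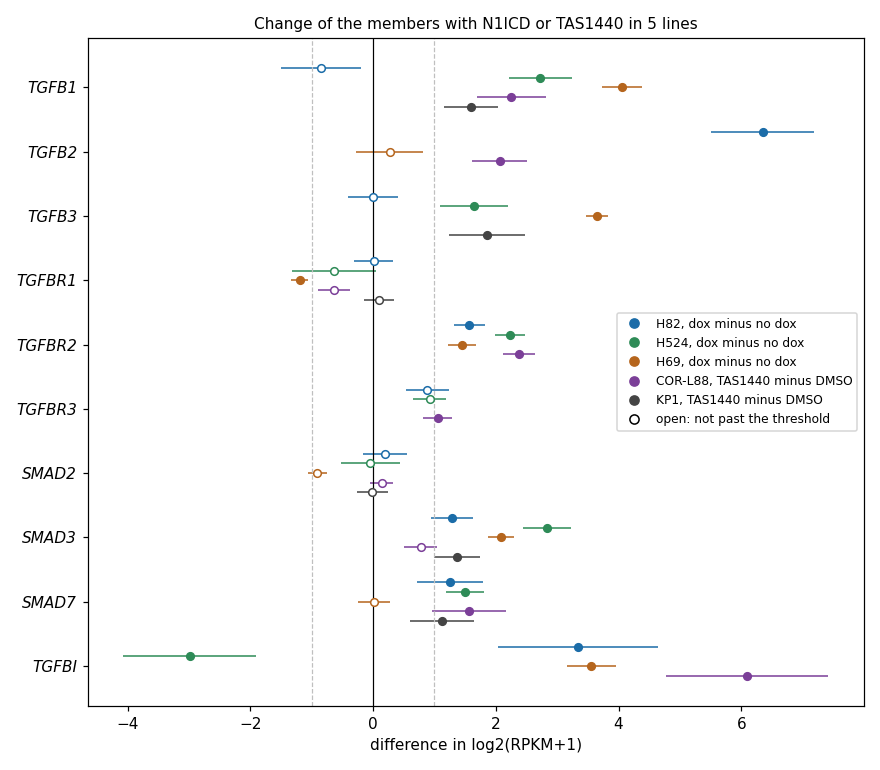
Log2 difference (x axis, log2(RPKM + 1) scale) of each member (y axis) in the 5 main comparisons, with 95% confidence intervals from limma. Filled points passed the threshold, open points did not, and dashed lines stand at -1 and 1; *TGFB2* reached 6.35 in H82 and *TGFBI* 6.09 in COR-L88 and -2.99 in H524.

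*TGFB2* (chromosome 1, 218518678 to 218617961 of GRCh37, + strand), a ligand that depends on betaglycan for efficient receptor binding, gave the largest response of any member in H82 cells. Its log2 values were 0.75, 1.00 and 1.05 in the parental libraries, 1.09, 2.67 and 2.41 in uninduced *N1ICD* cells and 8.75, 8.27 and 8.18 after doxycycline. Every library with doxycycline lay above every library without, and library 4 was the lowest of the uninduced *N1ICD* cells. The log2 difference was 6.35 (standard error 0.40, limma adjusted *P* = 5.04e-10), and mean RPKM went from 3.60 ± 2.20 to 342 ± 75.5 (SD, n = 3). In COR-L88 cells *TGFB2* was already high with DMSO (5.59, 5.82 and 5.71) and rose with TAS1440 (8.12, 7.73 and 7.46), by 2.07 (standard error 0.21, limma adjusted *P* = 2.04e-06). H69 cells held a level in between that did not move past the threshold, at 5.61, 4.46 and 5.15 without and 5.34, 5.41 and 5.30 with doxycycline (log2 difference, 0.27, 95% CI, -0.27 to 0.82), and the groups overlapped. H524 cells were near 0, with 0.57, 0.24 and 0.41 without and 2.39, 0.88 and 0.59 with *N1ICD* induction. There the gene could be tested only without the filter on low values, and the difference was 0.88 (standard error 0.35, limma adjusted *P* = 0.0932). Responses differed between lines when the difference itself was tested, the *N1ICD* response in H69 being smaller than in H82 by 6.07 (limma adjusted *P* = 1.14e-14) and that in H524 by 5.47 (limma adjusted *P* = 1.29e-12). Such tests called 6 of 10 members between H69 and H82, 5 between H524 and H82 and 4 between H69 and H524, beside 43.1%, 19.7% and 36.8% of all genes. With doxycycline, *NOTCH1*, *REST* and *TMEM173* together summed to 88.3 to 127 RPKM in H82. The same sum was 255 to 391 in H524 and 291 to 320 in H69. Legends of the study give 56 days of doxycycline for long-term H82 and H524 panels and over 56 days for H69. The part of these levels and times in the differences between lines was not tested. Over the 20 human groups, *TGFB2* was highest in H82 cells with doxycycline (8.40 ± 0.30, mean ± SD, n = 3), followed by the same cells with *REST* KO (8.36 ± 0.42) and COR-L88 with TAS1440 (7.77 ± 0.33). The *REST* KO libraries overlapped those of both other groups, which did not overlap each other. The 5 H524 groups held 5 of the 6 lowest means.

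*TGFB1* (chromosome 19, 41807492 to 41859827, − strand), the most widely expressed ligand, had its largest response in H69 and its lowest in H82. In H69 cells its values were 2.82, 3.00 and 2.86 in parental libraries, 3.20, 3.51 and 3.83 without and 7.65, 7.58 and 7.50 with doxycycline, and no library with doxycycline overlapped the others. The difference was 4.06 (standard error 0.14, limma adjusted *P* = 1.97e-08), equal to a mean of 190 against 10.6 RPKM. H524 cells went from 2.73, 2.09 and 1.57 to 4.76, 4.76 and 5.04 without overlap, by 2.73 (standard error 0.24, limma adjusted *P* = 9.19e-07). With TAS1440, COR-L88 cells went from 0.87, 0.55 and 0.46 to 3.32, 2.72 and 2.60, by 2.26 (standard error 0.26, limma adjusted *P* = 7.23e-06), and KP1 cells from 0.74, 0.73 and 0.57 to 2.30, 1.81 and 2.69, by 1.59 (standard error 0.19, limma adjusted *P* = 0.000204). H82 cells were the exception, with 2.68, 3.45 and 3.71 without and 2.51, 2.29 and 2.47 with doxycycline. All 3 induced libraries were lower there, but the difference of -0.85 (standard error 0.31, limma adjusted *P* = 0.0284) was below the size threshold, while it was -1.15 (limma adjusted *P* = 0.00502) and past it without library 4. The responses of H69 and of H524 exceeded that of H82 by 4.91 (limma adjusted *P* = 6.94e-15) and 3.58 (limma adjusted *P* = 3.32e-10), and that of H69 exceeded H524 by 1.34 (limma adjusted *P* = 0.00309). The highest group means were 7.58 ± 0.07 in H69 and 4.86 ± 0.16 in H524 cells with *N1ICD* (SD, n = 3), which overlapped with no other group.

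*TGFB3* (chromosome 14, 76424440 to 76449354, − strand), the third mammalian ligand, was low without induction in every human line. It rose in H69 cells, from 0.24, 0.40 and 0.25 to 3.86, 3.95 and 4.03, by 3.65 (standard error 0.08, limma adjusted *P* = 9.96e-10), which as mean RPKM was 0.229 against 14.4. It also rose in H524 cells, from 1.18, 1.00 and 0.73 to 2.52, 2.84 and 2.48, by 1.65 (standard error 0.26, limma adjusted *P* = 0.000233). H82 cells stayed at 1.23, 0.92 and 1.08 and 1.13, 1.17 and 0.94, with overlapping groups and a difference of 0.00 (95% CI, -0.41 to 0.41). The responses of H69 and H524 were larger than that of H82 by 3.65 (limma adjusted *P* = 3.25e-16) and 1.64 (limma adjusted *P* = 2.08e-06). In COR-L88 cells *TGFB3* was 0.16 to 0.60 in the DMSO and TAS1440 libraries of intact cells and did not pass the filter. *Tgfb3* in KP1 cells was 0.80, 0.83 and 0.90 with DMSO and 2.85, 2.05 and 3.20 with TAS1440, and rose by 1.86 (standard error 0.27, limma adjusted *P* = 0.000619). Thus *TGFB2* rose with *N1ICD* in H82 cells, where neither of the other ligands was called, and *TGFB1* and *TGFB3* rose in H524 and H69 cells, where *TGFB2* was not called.

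**Figure D2:**
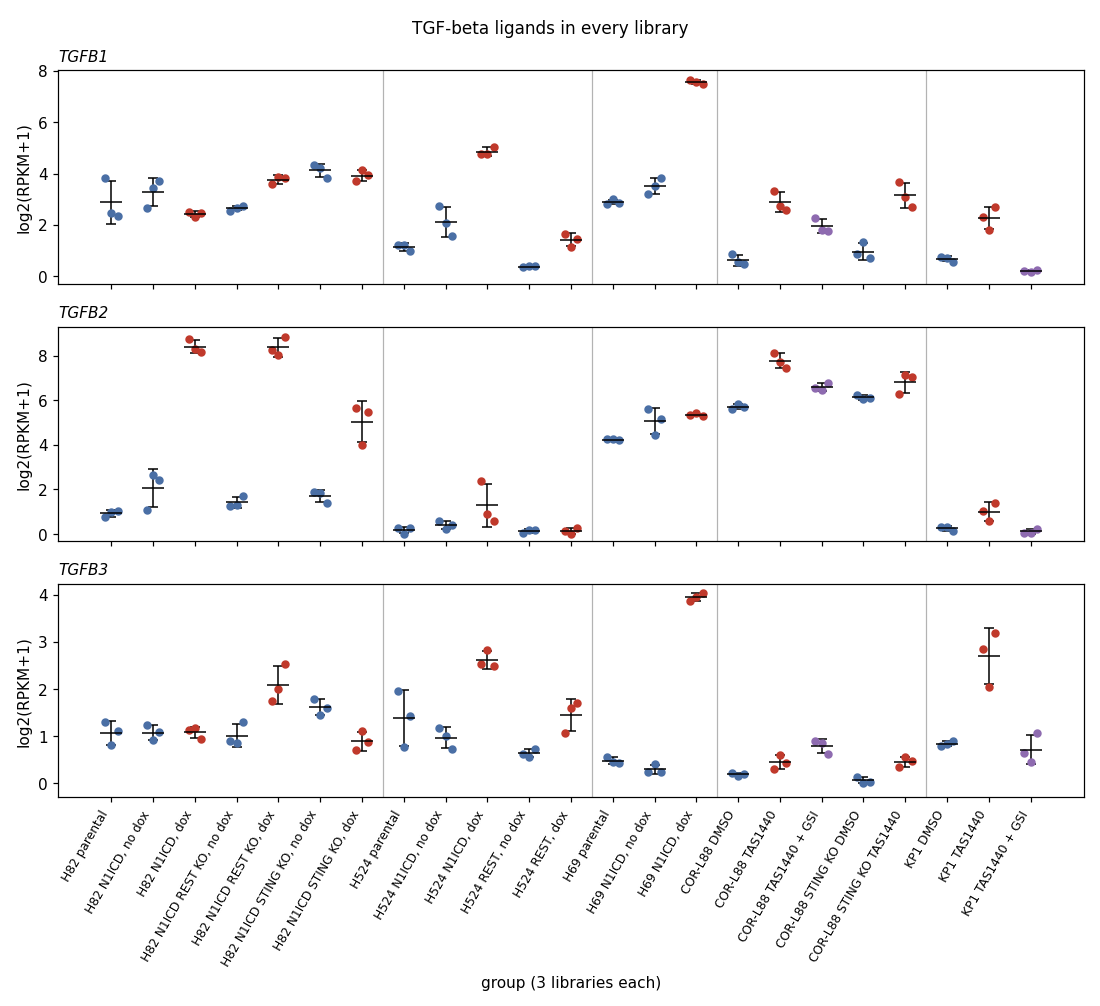
Level of *TGFB1*, *TGFB2* and *TGFB3* (log2(RPKM + 1), y axis) in every library of the 23 groups (x axis), with mean and SD; blue is parental, no doxycycline or DMSO, red is doxycycline or TAS1440 and purple is TAS1440 with GSI. *TGFB2* stands above 8 in the H82 libraries with doxycycline other than those labelled *STING* KO, and *TGFB1* above 7 only in the H69 libraries with doxycycline.

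*TGFBR2* (chromosome 3, 30648093 to 30735634, + strand), the ligand-binding type II receptor, was low in the parental, uninduced and DMSO groups and rose in all 4 human lines. In H82 cells its values were 0.25, 0.32 and 0.19 in parental libraries, 0.01, 0.05 and 0.13 without doxycycline and 1.59, 1.56 and 1.76 with it. H524 cells gave 0.18, 0.06 and 0.12 without and 2.30, 2.55 and 2.20 with doxycycline, and H69 cells 0.64, 0.94 and 0.77 and 2.27, 2.27 and 2.13. COR-L88 cells gave 0.46, 0.31 and 0.43 with DMSO and 2.74, 2.72 and 2.87 with TAS1440. In each of these lines the lowest treated library lay above the highest untreated library. The log2 differences were 1.57 (standard error 0.12, limma adjusted *P* = 8.29e-09) in H82, 2.23 (standard error 0.11, limma adjusted *P* = 3.70e-09) in H524, 1.44 (standard error 0.10, limma adjusted *P* = 1.50e-06) in H69 and 2.38 (standard error 0.12, limma adjusted *P* = 4.72e-09) in COR-L88. Their size depends on the value added before the logarithm, and with 0.1 in place of 1 they were 3.97, 4.51, 2.22 and 3.84. The response of H69 was smaller than those of H82 and H524 by 1.75 and 2.29 on that scale, both called, and by 0.13 and 0.78, neither called, with 1. Mean RPKM was 0.321 with DMSO and 5.86 with TAS1440 in COR-L88 cells, so even the induced level was modest. *Tgfbr2* in KP1 cells was 0.02, 0.02 and 0.01 with DMSO and 2.25, 0.59 and 1.46 with TAS1440 and was tested only without the filter, where it was higher by 1.41 (standard error 0.36, limma adjusted *P* = 0.0265). Ordered by level, COR-L88 cells with TAS1440 were highest (2.78 ± 0.08, SD, n = 3), H524 and H69 cells with *N1ICD* followed (2.35 ± 0.18 and 2.22 ± 0.08) and overlapped each other, and H82 *REST* KO cells without doxycycline were listed at 0 in all 3 libraries.

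*TGFBR1* (chromosome 9, 101866320 to 101916474, + strand), the signaling type I receptor, was well expressed without treatment and was never called higher in the main comparisons. It fell in H69 cells, from 3.07, 3.02 and 3.09 to 1.84, 1.83 and 1.92, by 1.20 (standard error 0.06, limma adjusted *P* = 1.72e-07). The other lines stayed within the size threshold, with 3.83, 3.50 and 3.64 without and 3.83, 3.56 and 3.60 with doxycycline in H82 (difference, 0.01, 95% CI, -0.31 to 0.33), 3.58, 4.11 and 4.22 and 3.40, 3.18 and 3.42 in H524 (-0.64, 95% CI, -1.32 to 0.05), and 3.42, 3.65 and 3.70 with DMSO and 2.84, 3.06 and 2.97 with TAS1440 in COR-L88 (-0.63, standard error 0.12, limma adjusted *P* = 0.000596). The H69 and H82 responses differed by -1.21 (limma adjusted *P* = 0.000252). *Tgfbr1* in KP1 was 1.10, 1.14 and 1.11 with DMSO and 1.23, 1.35 and 1.06 with TAS1440, with overlapping groups. Since *TGFBR2* rose and *TGFBR1* did not, the gap between both receptors narrowed in every human line, and in H69 cells with doxycycline *TGFBR2* (2.22 ± 0.08) stood above *TGFBR1* (1.86 ± 0.05, SD, n = 3), both as levels per kilobase.

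*TGFBR3* (chromosome 1, 92145900 to 92371892, − strand), the co-receptor betaglycan, was higher with *N1ICD* induction or TAS1440 in all 4 human lines, by about the size of the threshold. Its values went from 1.39, 1.65 and 1.65 to 2.60, 2.37 and 2.38 in H82 cells, by 0.88 (standard error 0.17, limma adjusted *P* = 0.000268), and from 0.43, 0.65 and 0.64 to 1.41, 1.66 and 1.42 in H524 cells, by 0.92 (standard error 0.13, limma adjusted *P* = 7.62e-05). Neither was called, although no libraries overlapped, and with 0.1 in place of 1 added to RPKM both were (1.15 and 1.71). COR-L88 cells went from 0.28, 0.22 and 0.26 to 1.16, 1.36 and 1.41, and this rise of 1.05 (standard error 0.11, limma adjusted *P* = 3.02e-06) passed the threshold. It was 0.86 after quantile normalization and 0.92 with median-centred libraries, both short of the threshold. In H69 cells, tested without the filter, the values were 0.29, 0.09 and 0.20 and 0.90, 0.93 and 0.82, a difference of 0.69 (standard error 0.06, limma adjusted *P* = 3.63e-05). *Tgfbr3* stayed at or under 0.50 in all KP1 libraries.

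**Figure D3:**
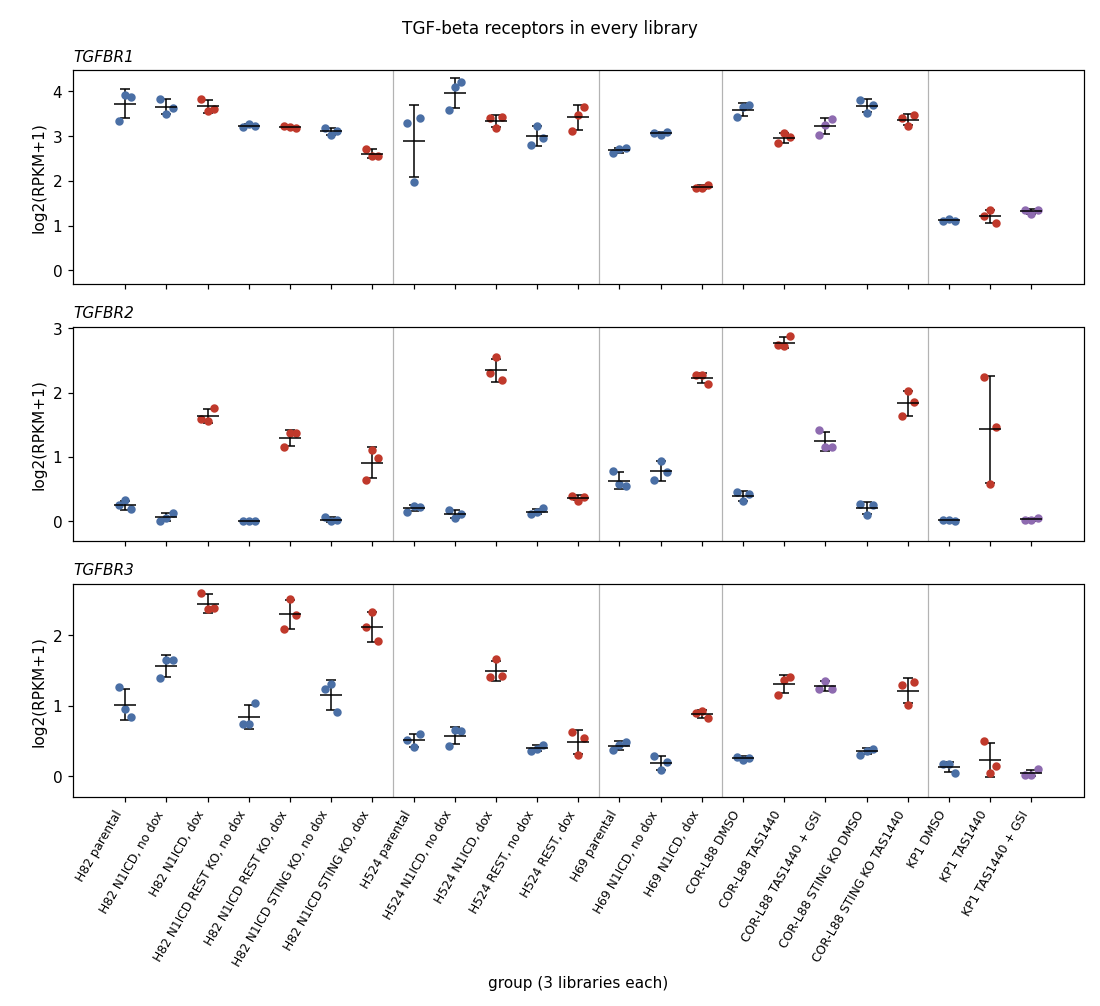
Level of *TGFBR1*, *TGFBR2* and *TGFBR3* (log2(RPKM + 1), y axis) in every library of the 23 groups (x axis), with mean and SD and the colors of the ligand plot. *TGFBR2* lies near 0 in the blue groups and between 1.56 and 2.87 in the treated libraries of the 4 human main comparisons, while *TGFBR1* is lowest in H69 cells with doxycycline.

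*SMAD3* (chromosome 15, 67356101 to 67487511, + strand), the receptor-regulated SMAD that binds DNA itself, rose with *N1ICD* in all 3 lines with the vector. H82 cells had 1.11, 1.40 and 1.57 in parental libraries, 2.41, 2.47 and 2.35 without and 3.87, 3.38 and 3.84 with doxycycline, a rise of 1.28 (standard error 0.16, limma adjusted *P* = 3.05e-06). H524 cells went from 0.82, 0.47 and 1.26 to 3.64, 3.82 and 3.59, by 2.83 (standard error 0.18, limma adjusted *P* = 3.78e-08), and H69 cells from 2.39, 2.43 and 2.21 to 4.43, 4.39 and 4.48, by 2.09 (standard error 0.09, limma adjusted *P* = 7.49e-08). No libraries overlapped, and the induced levels of the 3 lines were closer to each other than the levels without doxycycline. The H524 response was larger than that of H82 by 1.55 (limma adjusted *P* = 4.01e-08). COR-L88 cells started higher and moved less, from 2.61, 2.97 and 2.85 to 3.69, 3.51 and 3.55, a difference of 0.77 (standard error 0.12, limma adjusted *P* = 0.000129) that was not called. In KP1 cells *Smad3* went from 0.01, 0.01 and 0.02 to 1.68, 1.10 and 1.35, by 1.37 (standard error 0.16, limma adjusted *P* = 0.000186), or by 3.96 with 0.1 in place of 1.

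*SMAD7* (chromosome 18, 46446223 to 46477335, − strand), the inhibitory SMAD that recruits ubiquitin ligases to the type I receptor, rose in H82, H524 and COR-L88 cells. Its values were 0.92, 0.90 and 0.65 without and 2.57, 1.47 and 2.21 with doxycycline in H82, a rise of 1.26 (standard error 0.26, limma adjusted *P* = 0.000512) that came to 0.96 and lost its call under quantile normalization. In H524 they were 1.02, 0.82 and 0.71 and 2.36, 2.44 and 2.24, a rise of 1.49 (standard error 0.15, limma adjusted *P* = 2.61e-06). TAS1440 took COR-L88 cells from 2.56, 2.34 and 2.10 to 3.63, 4.00 and 4.07, by 1.56 (standard error 0.28, limma adjusted *P* = 0.000315). H69 cells differed, with 3.05, 2.75 and 2.86 without and 2.91, 2.89 and 2.89 with doxycycline, overlapping groups and a difference of 0.01 (95% CI, -0.25 to 0.27). Tested directly, the H69 response was smaller than that of H82 by 1.25 (limma adjusted *P* = 0.00109, 0.91 and not called under quantile normalization) and than that of H524 by 1.48 (limma adjusted *P* = 0.000171). H69 cells already had the highest level among untreated lines (3.37, 3.79 and 3.64 in parental libraries). *Smad7* in KP1 rose from 0.65, 0.69 and 0.57 to 1.53, 2.39 and 1.35, by 1.12 (standard error 0.23, limma adjusted *P* = 0.00431), with library 5 far above the other TAS1440 libraries and a difference of 0.80, not called, without it.

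*SMAD2* (chromosome 18, 45335328 to 45457517, − strand), the other receptor-regulated SMAD, was called in none of the 5 main comparisons by limma, with an adjusted *P* under 0.05 in H69 alone. Its level was the highest and most even of the 3 SMADs, between 5.38 and 6.82 over all 60 human libraries. In H82 cells it was 5.99, 6.82 and 6.46 without and 6.68, 6.75 and 6.44 with doxycycline, in H524 5.43, 5.64 and 5.62 and 5.39, 5.51 and 5.66, and in COR-L88 6.08, 6.08 and 6.20 with DMSO and 6.21, 6.34 and 6.24 with TAS1440. The differences had 95% intervals that lay within 1 of 0, at 0.20 (95% CI, -0.16 to 0.56), -0.04 (95% CI, -0.53 to 0.44) and 0.14 (95% CI, -0.05 to 0.33). H69 cells were lower with doxycycline, 5.67, 5.70 and 5.70 against 6.47, 6.62 and 6.70, by 0.91 (standard error 0.07, limma adjusted *P* = 2.08e-06), which was just under the size threshold and past it after quantile normalization (-1.02). The H69 and H82 responses differed by -1.11 (limma adjusted *P* = 2.48e-05), and by -0.89 without library 4 and -0.97 with median-centred libraries, both short of a call. *Smad2* stayed at 1.19 to 1.42 in the KP1 DMSO and TAS1440 libraries.

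*TGFBI* (chromosome 5, 135364677 to 135399507, + strand) encodes a secreted matrix protein and is a common transcriptional target of TGF-β. It gave the widest range of responses among the members. In COR-L88 cells it rose from 1.77, 2.74 and 3.05 with DMSO to 7.97, 8.93 and 8.95 with TAS1440, by 6.09 (standard error 0.61, limma adjusted *P* = 2.09e-06), and mean RPKM went from 5.13 ± 2.48 to 410 ± 139 (SD, n = 3). H69 cells with *N1ICD* went from 6.90, 7.58 and 7.27 to 10.75, 10.83 and 10.85, by 3.56 (standard error 0.18, limma adjusted *P* = 1.61e-07), and H82 cells from 1.48, 2.64 and 2.95 to 5.74, 5.71 and 5.65, by 3.34 (standard error 0.62, limma adjusted *P* = 0.000223). In all 3 lines no treated library overlapped an untreated library. H524 cells went the opposite way, from 3.99, 6.66 and 5.27 without to 2.70, 2.64 and 1.62 with doxycycline, and fell by 2.99 (standard error 0.50, limma adjusted *P* = 0.000417). Parental H524 cells had a mean between both, at 3.43 ± 0.13 (SD, n = 3). The uninduced H524 libraries spread over more than 2 log2 units, and leaving out each of them in turn gave -3.64, -2.31 and -3.00 for libraries 22, 23 and 24. The H524 response lay below that of H82 by 6.33 (limma adjusted *P* = 4.81e-08) and that of H69 lay above H524 by 6.55 (limma adjusted *P* = 8.25e-09), whereas for H69 and H82 no difference passed the test (0.21, 95% CI, -1.47 to 1.90). *Tgfbi* was listed at 0 in all 3 KP1 DMSO libraries and at 0.83, 0.25 and 0.93 with TAS1440, with no fold given against 0. By level, H69 cells with doxycycline (10.81 ± 0.05), COR-L88 cells with TAS1440 (8.62 ± 0.56) and H69 cells without doxycycline (7.25 ± 0.34) were the highest groups and did not overlap.

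**Figure D4:**
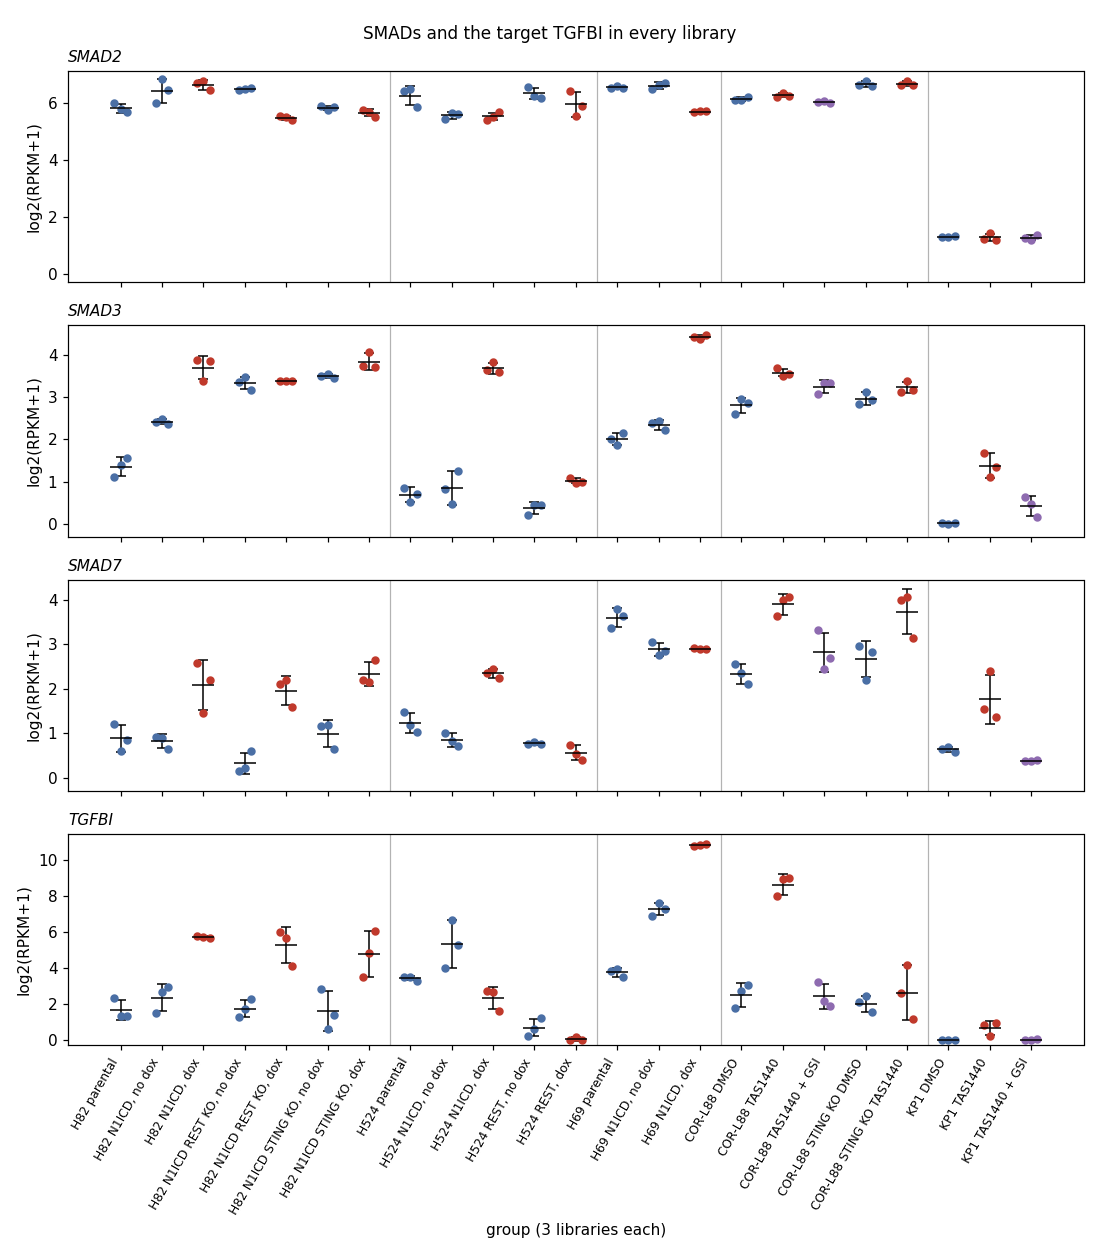
Level of *SMAD2*, *SMAD3*, *SMAD7* and *TGFBI* (log2(RPKM + 1), y axis) in every library of the 23 groups (x axis), with mean and SD and the colors of the ligand plot. *SMAD2* is nearly level in the human groups, and *TGFBI* ranges from 0.00 to 10.85.

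*REST* KO asked whether the response of H82 cells to *N1ICD* passes through this repressor. In *REST* KO cells 7 of 10 members rose with doxycycline and 1 fell, beside 16.2% and 13.7% of all genes. *TGFB1*, which was lower with doxycycline in intact cells, went from 2.56, 2.68 and 2.74 to 3.59, 3.88 and 3.84 with the KO and rose by 1.11 (standard error 0.31, limma adjusted *P* = 0.00565). The change of direction was itself past the threshold, with a difference between both responses of 1.96 (standard error 0.43, limma adjusted *P* = 0.00413), and 4 of 10 members had such a difference (background 12.9%). *TGFB3* went from 0.89, 0.85 and 1.29 to 1.75, 2.00 and 2.53, and its response was larger with the KO by 1.08 (limma adjusted *P* = 0.0113), but it was 0.997, 0.996 and 0.86 and not called without libraries 4, 29 and 33. The rise of *TGFB3* in *REST* KO cells, 1.08 (limma adjusted *P* = 0.000156), likewise came to 0.999 without library 29, 0.86 without library 33 and 0.70 under quantile normalization, none of them called. *SMAD3* was 3.36, 3.47 and 3.17 in *REST* KO cells without doxycycline and 3.38, 3.38 and 3.38 with it, a difference of 0.05 (95% CI, -0.29 to 0.38) and a response smaller than in intact cells by 1.24 (limma adjusted *P* = 0.000827). *SMAD2* went from 6.46, 6.47 and 6.52 to 5.52, 5.50 and 5.38 and fell by 1.02 (limma adjusted *P* = 7.37e-05), at -0.996 without library 30, -0.97 without library 33 and -0.93 under quantile normalization and then not called. Its response was lower than in intact cells by 1.22 (limma adjusted *P* = 0.00166).

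For the other 6 members no difference between the responses of *REST* KO and intact cells passed the test (limma adjusted *P* of 0.114 or more). *TGFB2* went from 1.26, 1.31 and 1.71 to 8.24, 8.02 and 8.84, and its response differed by 0.59 (95% CI, -0.59 to 1.78). *TGFBR2* went from 0 in all 3 libraries to 1.16, 1.37 and 1.37 (difference of responses, -0.27, 95% CI, -0.63 to 0.09), and *TGFBI* from 1.28, 1.70 and 2.26 to 5.98, 5.66 and 4.10 (0.16, 95% CI, -1.69 to 2.00). With doxycycline, 2 of 10 members were higher and 1 lower with *REST* KO than without (background 9.44% and 8.21%). These were *TGFB1* (1.34, limma adjusted *P* = 0.00228), *TGFB3* (1.01, limma adjusted *P* = 0.000575) and *SMAD2* (-1.16, limma adjusted *P* = 4.24e-05), of which *TGFB3* was not called without library 9 (0.94), without library 33 (0.79) or under quantile normalization (0.99). Without doxycycline limma called 0 of 10 (background 6.24%), with 2 at an adjusted *P* under 0.05 (background 15.2%) and 3 at an unadjusted *P* under 0.05. *SMAD3*, at 0.92 (limma adjusted *P* = 0.00102), was just short and was called at 1.002 without library 30. With 0.1 in place of 1 it was called (1.05), as were *SMAD7* (-1.42) and *TGFBR3* (-1.21). *NOTCH1* mRNA was higher with the KO in these libraries, as given above, and its part in these differences was not tested. The contrasts of *REST* KO and of *STING* KO share the intact libraries and are given side by side only.

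In the H82 libraries labelled *STING* KO, the *TGFB2* response was the one that differed most. *TGFB2* went from 1.90, 1.85 and 1.40 without to 5.66, 3.98 and 5.45 with doxycycline and rose by 3.31 (standard error 0.40, limma adjusted *P* = 3.07e-06), which was 3.03 less than in intact cells (standard error 0.56, limma adjusted *P* = 0.00222), 1 of 10 members with a called difference of responses (background 7.12%). Every induced library with the KO lay below every induced library without it, by 3.37 on average (limma adjusted *P* = 8.32e-06). In these cells 3 of 10 members rose with doxycycline and 0 fell (background 12.2% and 8.07%), *SMAD7* from 1.15, 1.17 and 0.65 to 2.20, 2.16 and 2.65 and *TGFBI* from 2.81, 0.64 and 1.39 to 3.48, 4.85 and 6.03 being the others. *TGFBR2* (0.88, limma adjusted *P* = 1.52e-05) and *TGFBR3* (0.96, limma adjusted *P* = 0.000175) were just short, and were called at 1.02 without library 58 and at 1.005, 1.04 and 1.06 without libraries 55, 56 and 60. With 0.1 in place of 1 they were 3.03 and 1.38 and both called. *TGFB3*, at -0.72 (limma adjusted *P* = 0.0068), was called lower under quantile normalization (-1.01). *SMAD3* started at 3.50, 3.56 and 3.45 and reached 3.74, 4.07 and 3.70, and its response was below that of intact cells by 0.95 (limma adjusted *P* = 0.0134), which was called at -1.10 and -1.06 without libraries 8 and 59 and at -1.08 with 0.1 in place of 1. With doxycycline, *TGFB1* was higher (1.50, limma adjusted *P* = 0.00104) and *TGFBR1* lower (-1.05, limma adjusted *P* = 5.69e-05) with the label than without, for 1 higher and 2 lower members in all (background 7.72% and 8.75%). The *TGFBR1* call was lost without library 7 (-0.97) and with median-centred libraries (-0.9997), and *SMAD2* (-0.98, limma adjusted *P* = 0.000264) gained one without library 9 (-1.08) or 58 (-1.04). Without doxycycline, 1 member was called, *SMAD3*, higher by 1.09 (limma adjusted *P* = 6.94e-05) (background 6.64% higher and 7.72% lower, or 923 and 1073 genes, against 998 and 748 after quantile normalization), and *TGFB1* (0.84, limma adjusted *P* = 0.0407) was called at 1.06 without library 6. Since *TMEM173* mRNA was not lower in these libraries, and *NOTCH1* was 5.97 to 7.48 in them with doxycycline against 4.26 to 5.56 in intact cells, the part of the KO itself was not tested.

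H524 cells with inducible *REST* asked how much of the response to *N1ICD* is given by this repressor alone. *TGFB1* went from 0.35, 0.39 and 0.39 to 1.65, 1.15 and 1.44 with doxycycline and was the 1 member of 9 called (background 1.28% higher and 0.586% lower), at 1.04 (standard error 0.24, limma adjusted *P* = 0.0356). That call was lost without each of the 6 libraries in turn, without the filter and under quantile normalization. *TGFBR2* stayed at 0.11, 0.15 and 0.20 and 0.40, 0.32 and 0.38, and *SMAD7* at 0.75, 0.81 and 0.75 and 0.74, 0.52 and 0.41. *SMAD3* was 0.21, 0.46 and 0.45 without and 1.08, 0.98 and 1.00 with doxycycline, a difference of 0.65 (limma adjusted *P* = 0.0735), or 1.56 and called with 0.1 in place of 1. The *N1ICD* response was larger than the *REST* response for *SMAD3* by 2.18 (limma adjusted *P* = 3.48e-05), for *TGFBR2* by 2.01 (limma adjusted *P* = 9.31e-07), for *SMAD7* by 1.71 (limma adjusted *P* = 4.63e-05) and for *TGFB1* by 1.69 (limma adjusted *P* = 0.0028), the last being 0.91 and not called with 0.1 in place of 1. In all, 5 of 9 members had a called difference of responses (background 15.6%). Of these, *SMAD3* and *TGFBR2* passed the filter only through libraries with doxycycline, so the count lends their differences no weight. *TGFBI* was 0.24, 0.62 and 1.21 without and 0.00, 0.18 and 0.00 with *REST* induction, and its fall with *N1ICD* exceeded that with *REST* by 2.36 (limma adjusted *P* = 0.0331), a call that was lost when library 24, 27, 34, 35, 37, 38 or 39 was left out (adjusted *P* of 0.0532 to 0.0919), without the filter, with only the compared groups in the model, and with 0.1 in place of 1 (-1.02).

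Between the induced H524 groups, 7 of 9 members were higher with *N1ICD* than with *REST* and 0 lower, beside 12.3% and 11.5% of all genes. They were *TGFB1* (3.44), *SMAD3* (2.66), *TGFBI* (2.26), *TGFBR2* (1.98), *SMAD7* (1.79), *TGFB3* (1.16) and *TGFBR3* (1.01), with limma adjusted *P* of 1.19e-08 to 0.00259. The count lends no weight to *SMAD3*, *TGFBR2* and *TGFBR3*, which passed the filter only through libraries with doxycycline. *TGFBI* was thus higher with *N1ICD* than with *REST* at the end of treatment although it fell with *N1ICD*, and without doxycycline it was 3.99, 6.66 and 5.27 in *N1ICD* and 0.24, 0.62 and 1.21 in *REST* cells. *TGFB3* came to 0.96 without library 37 and *TGFBR3* to 0.93 and 0.91 without libraries 26 and 38, none of them called. For *TGFBR1* and *SMAD2* no difference between these groups passed the test, at -0.09 (95% CI, -0.77 to 0.60) and -0.42 (95% CI, -0.91 to 0.06).

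In COR-L88 cells, adding the GSI asked which part of the TAS1440 response is lost when Notch cleavage is blocked. The study states that such drugs act on other membrane proteins too. Notch and these other targets cannot be told apart here, in COR-L88 or in KP1 cells. *TGFBI* was 3.22, 2.14 and 1.88 with TAS1440 and GSI, overlapping the DMSO libraries (1.77, 2.74 and 3.05) and below TAS1440 alone by 6.20 (standard error 0.61, limma adjusted *P* = 6.28e-06). *TGFBR2* was 1.41, 1.16 and 1.16 with GSI, between both, and TAS1440 alone was higher by 1.53 (standard error 0.12, limma adjusted *P* = 1.23e-06). *TGFB2* was likewise intermediate at 6.55, 6.45 and 6.77, with TAS1440 alone higher by 1.18 (standard error 0.21, limma adjusted *P* = 0.000456), and *SMAD7* was 3.31, 2.44 and 2.70, with TAS1440 alone higher by 1.08 (standard error 0.28, limma adjusted *P* = 0.00632). *SMAD7* was not called without library 15 (0.99) or 17 (0.89), or under quantile normalization (0.95) or median centring (0.95). *TGFBR3* behaved differently, at 1.24, 1.36 and 1.24 with GSI against 1.16, 1.36 and 1.41 without, a difference of 0.03 (95% CI, -0.21 to 0.27). In all, 4 of 9 members were higher with TAS1440 alone than with GSI and 0 lower (background 10.4% and 4.32%, or 1367 and 568 genes, against 1129 and 792 with median-centred libraries). *TGFB1* (0.94, limma adjusted *P* = 0.00982) was short of the threshold and was called without library 14, 15 or 16 (1.02, 1.08 and 1.10) and with 0.1 in place of 1 (1.14). Against DMSO, TAS1440 and GSI together left *TGFB1* at 2.26, 1.81 and 1.76, higher by 1.32 (limma adjusted *P* = 0.0021), and *TGFBR3* higher by 1.02 (limma adjusted *P* = 1.28e-05), for 2 members higher and 0 lower (background 5.62% and 3.40%). The *TGFBR3* call was lost without library 17 (0.98) and under quantile normalization (0.97). Neither member would have passed the filter without libraries with TAS1440, so this count lends their differences no weight.

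COR-L88 cells labelled *STING* KO gave the sharpest contrast for *TGFBI*. It was 2.10, 2.41 and 1.53 with DMSO and 2.60, 4.15 and 1.15 with TAS1440, groups that overlapped, with a difference of 0.62 (95% CI, -0.71 to 1.94) against the rise to 7.97, 8.93 and 8.95 in intact cells. The TAS1440 response was smaller with the KO by 5.48 (standard error 0.87, limma adjusted *P* = 0.00367), and with TAS1440 the KO libraries lay below all intact libraries, by 5.98 (limma adjusted *P* = 3.13e-05). *TGFB2* responded less as well, from 6.22, 6.04 and 6.09 to 6.27, 7.13 and 7.02, and the response was smaller by 1.38 (limma adjusted *P* = 0.0146). These were 2 of 9 members with a called difference of responses (background 4.23%). The study shows its KO cells as single-cell clones, so the KO and the choice of clone cannot be told apart here. The same holds for the H82 KO cells. *TGFB1* rose as in intact cells, from 0.85, 1.33 and 0.70 to 3.67, 3.10 and 2.68, by 2.19 (limma adjusted *P* = 1.64e-05), with a difference of responses of -0.07 (95% CI, -0.86 to 0.73). *TGFBR2* rose from 0.27, 0.09 and 0.25 to 1.63, 2.02 and 1.85, by 1.63 (limma adjusted *P* = 1.81e-07), and *SMAD7* from 2.95, 2.21 and 2.84 to 3.99, 4.07 and 3.15, by 1.07 (limma adjusted *P* = 0.00684). *SMAD7* was not called without library 41, 43 or 44 (0.84, 0.95 and 0.90). These were 3 of 9 members higher and 0 lower, beside 10.2% and 5.79% of all genes. On TAS1440, 1 of 9 members was lower with the KO and 0 higher (background 5.06% lower and 1.48% higher, or 664 and 194 genes, against 504 and 298 with median-centred libraries). *TGFB2* (-0.96, limma adjusted *P* = 0.00467) and *TGFBR2* (-0.94, limma adjusted *P* = 0.000156) were just short and were called without library 15, 44 or 45 (-1.12, -1.13 and -1.07) and without library 44 (-1.03), respectively, and *TGFBR2* also with 0.1 in place of 1 (-1.16). With DMSO limma called 0 of 9 members (background 1.47%), and 1, *SMAD2* (difference 0.54), had an adjusted *P* under 0.05 (background 5.41%), with 1 at an unadjusted *P* under 0.05.

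In KP1 cells none of the members that rose with TAS1440 was called against DMSO when GSI was added. *Tgfb1* was 0.21, 0.18 and 0.26 with TAS1440 and GSI, *Tgfb3* 0.64, 0.45 and 1.06 and *Smad7* 0.38, 0.37 and 0.40, and none of these libraries reached a library with TAS1440 alone. TAS1440 alone was higher than with GSI by 2.05 (standard error 0.19, limma adjusted *P* = 5.34e-05) for *Tgfb1*, 1.98 (standard error 0.27, limma adjusted *P* = 0.000489) for *Tgfb3* and 1.38 (standard error 0.23, limma adjusted *P* = 0.00154) for *Smad7*, which made 3 of 6 members higher and 0 lower (background 8.50% and 8.00%). All 3 passed the filter only through the libraries with TAS1440 alone, so this count lends their differences no weight. *Smad3* was 0.63, 0.48 and 0.16 with GSI, below TAS1440 alone by 0.95 (limma adjusted *P* = 0.00185), and it was called without library 5 (1.09) or 7 (1.06) and with 0.1 in place of 1 (2.03). *Tgfbr2* was 0.02, 0.02 and 0.06 with GSI. Against DMSO, limma called 0 of 6 members with TAS1440 and GSI, against 1.21% of all genes, 0 had an adjusted *P* under 0.05 (background 1.97%) and 2 an unadjusted *P* under 0.05. The NE and the fibroblast list moved along with these members, in the ranges given above, and their part was not tested.

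**Figure D5:**
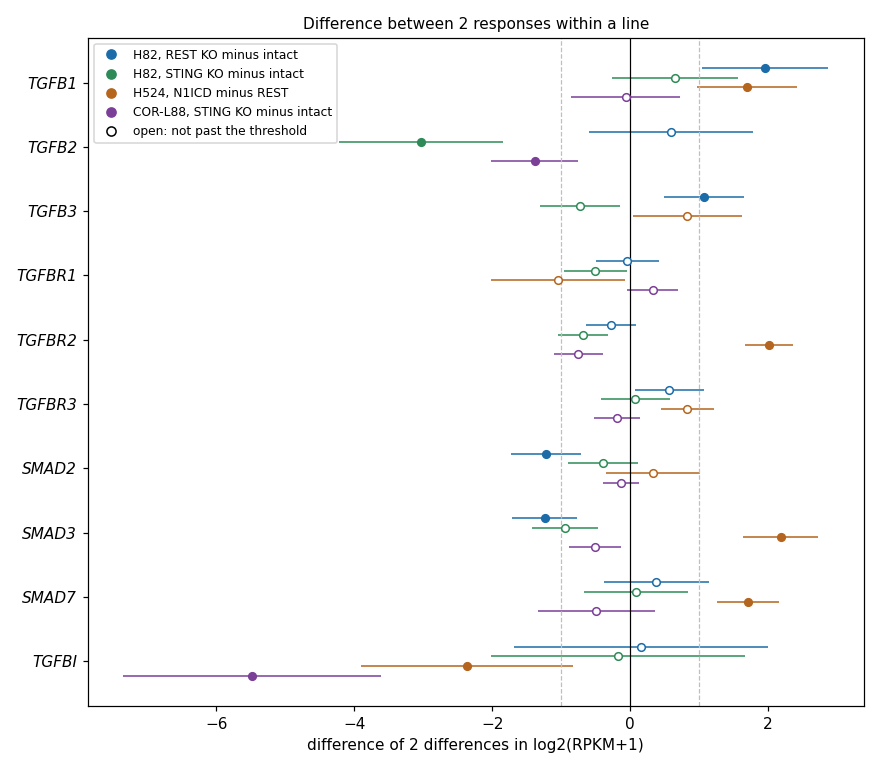
Difference between 2 responses (x axis, log2(RPKM + 1) scale) of each member (y axis), with 95% confidence intervals, for H82 *REST* KO minus intact, H82 *STING* KO minus intact, H524 *N1ICD* minus *REST*, and COR-L88 *STING* KO minus intact. Filled points passed the threshold; the largest were *TGFBI* in COR-L88 (-5.48) and *TGFB2* in H82 *STING* KO (-3.03).

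Without Notch activation the lines already differed in their ligands and SMADs. Parental H82, H524 and H69 and DMSO-treated COR-L88 cells were compared, of which only the last carried a solvent, so that line and solvent cannot be told apart for it. *TGFB2* was 0.26, 0.00 and 0.26 in H524, 0.75, 1.00 and 1.05 in H82, 4.25, 4.24 and 4.21 in H69 and 5.59, 5.82 and 5.71 in COR-L88. H69 and COR-L88 each lay above H82 and H524, with log2 differences of 3.30 to 5.53 over the 4 pairs (limma adjusted *P* of 1.39e-11 or less). *SMAD7* was likewise higher in H69 and COR-L88 than in H82 and H524, at 1.21, 0.60 and 0.86 in H82, 1.48, 1.19 and 1.04 in H524, 2.56, 2.34 and 2.10 in COR-L88 and 3.37, 3.79 and 3.64 in H69, with differences of 1.10 to 2.71 over the 4 pairs, the smallest being 0.99 and not called without library 10. *TGFB1* did not, being lowest in COR-L88 (0.87, 0.55 and 0.46) and H524 (1.21, 1.23 and 0.97) and higher in H82 (3.83, 2.47 and 2.34) and H69 (2.82, 3.00 and 2.86). *SMAD3* was highest in COR-L88 (2.61, 2.97 and 2.85) and lowest in H524 (0.85, 0.51 and 0.72), 2.12 apart.

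Of the 10 members, H524 against H82 had 1 higher and 1 lower (background 28.5% in either direction), H69 against H82 3 higher and 1 lower (background 41.2% in either direction), COR-L88 against H82 3 higher and 1 lower (background 36.4% in either direction), H69 against H524 4 higher and 0 lower (background 30.3% in either direction), COR-L88 against H524 3 higher and 1 lower (background 31.3% in either direction), and COR-L88 against H69 1 higher and 2 lower (background 30.6% in either direction). With 1 added to RPKM *TGFBR2* was called in none of these 6 pairs, and all 4 lines had it at 0.15 to 0.78. With 0.1 in place of 1 it was called as higher in H69 than in H82 (1.16 in place of 0.38) and H524 (1.35 in place of 0.43). Against H82, this setting also called *SMAD3*, *TGFB2* and *TGFBR3* as lower in H524 (-1.22, -2.27 and -1.09), and *TGFB3* and *TGFBR3* as lower in H69 (-1.26 and -1.30) and in COR-L88 (-2.27 and -1.92). It called *TGFB3* as lower in H69 than in H524 (-1.71), *TGFB1* as lower in COR-L88 than in H524 (-1.05), and, in COR-L88 against H69, *TGFB3* as lower (-1.01) and *TGFBR1* as higher (1.01). *TGFBR1* in H69 was -1.03 from H82 (limma adjusted *P* = 1.18e-05), a call lost without library 2, 3 or 46 (-0.93, -0.95 and -0.9996). H524 and H82 differed in it by -0.83 (limma adjusted *P* = 0.000373), which became a call without library 1, 19 or 21 (-1.02, -1.03 and -1.09). *TGFB3* was lower in COR-L88 than in H524 by 1.19 (limma adjusted *P* = 3.47e-07), and by 0.91, not called, without library 19.

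The *N1ICD* vector without doxycycline went along with smaller changes, some of them in the members. Uninduced *N1ICD* H69 cells had *TGFBI* at 6.90, 7.58 and 7.27 against 3.84, 3.94 and 3.47 in parental cells, higher by 3.50 (standard error 0.18, limma adjusted *P* = 4.51e-06), so nearly as large a step separated parental from uninduced cells as uninduced from induced cells. It was the 1 of 9 members called (background 3.02% higher and 2.25% lower), and *TGFB2* (0.84, limma adjusted *P* = 0.0318) was called as well at 1.15 without library 50. In H82, *SMAD3* was higher in uninduced than parental cells by 1.06 (standard error 0.16, limma adjusted *P* = 0.000189), the 1 member of 10 called (background 3.75% and 2.66%). That call was lost without library 1 (0.93) and under quantile normalization (0.96), while *TGFB2* (1.12, limma adjusted *P* = 0.0708) was called at 1.61 without library 4 and at 1.62 with 0.1 in place of 1, as was *TGFBR2* (-1.04 in place of -0.19). In H524, *TGFBR1* (1.08, limma adjusted *P* = 0.0243) and *TGFBI* (1.88, limma adjusted *P* = 0.015) were higher in uninduced *N1ICD* than in parental cells, 2 of 9 members (background 4.94% higher and 7.16% lower). *TGFBR1* lost its call without library 20, 23 or 24 (0.62, 1.01 and 0.95), *TGFBI* came to 1.20 and kept its call without library 23, and with only these groups in the model both adjusted *P* were above 0.05 (0.191 and 0.134). *TGFB1* (0.99, limma adjusted *P* = 0.00872) was at the threshold there and was called without library 19, 20, 23 or 24 (1.03, 1.04, 1.01 and 1.27) and with 0.1 in place of 1 (1.39). In uninduced H524 *REST* cells *TGFBI* was lower than in parental cells by 2.74 (limma adjusted *P* = 0.0442), the 1 of 9 members called (background 0.0220% higher and 0.242% lower). The adjusted *P* was above 0.05 without each of the 6 libraries in turn and without the filter.

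Other genes of the pathway, from lists chosen by function, were counted in the same 5 comparisons. Among genes that hold TGF-β latent or release it, 5 of 9 in H82, 7 of 9 in H524, 6 of 9 in H69, 5 of 9 in COR-L88 and 6 of 6 in KP1 rose, and 1 in H69 fell, beside 14.7%, 11.4%, 21.4%, 15.3% and 9.09% of all genes higher and 12.4%, 7.19%, 20.4%, 7.46% and 9.70% lower. The list medians were 1.15, 2.13, 3.32, 1.01 and 3.14 in H82, H524, H69, COR-L88 and KP1, beside the all-gene medians given above, none of which reached 0.1 in size. *THBS1*, whose product thrombospondin-1 can activate latent TGF-β, rose by 6.33 in H82, 3.92 in H524, 6.00 in H69 and 5.71 in COR-L88, and *Thbs1* by 6.24 in KP1 (limma adjusted *P* of 4.00e-05 or less). *ITGAV*, the αv integrin subunit, rose in all 5 lines, by 4.38 in H82. *LRRC32* (GARP), which tethers latent TGF-β to the cell surface, rose by 4.79 in H524 and 5.00 in H69. *ITGB6* rose by 3.09 in COR-L88 and *Ltbp2* by 3.54 in KP1, and *ITGB8*, another activating integrin subunit, fell by 1.28 in H69 and rose by 1.55 in COR-L88.

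Of the receptor partners, 0 of 9 in H82, 1 of 9 in H524, 3 of 9 in H69, 2 of 8 in COR-L88 and 0 of 6 in KP1 were higher and 3 were lower in H69, with medians of -0.21, 0.23, 0.11, 0.13 and -0.08, where 14.7%, 11.4%, 21.4%, 15.3% and 9.09% of all genes were higher and 12.4%, 7.19%, 20.4%, 7.46% and 9.70% lower. Endoglin (*ENG*), a co-receptor, rose by 1.11 in H524, 2.65 in H69 and 1.65 in COR-L88, and the SMAD anchor *ZFYVE9* (SARA) by 1.08 in COR-L88. In H69 cells *STRAP* rose by 1.67 and the pseudoreceptor *BAMBI* and the type I receptor *ACVRL1* fell by 2.07 and 1.27. The other called fall of this list in H69 was that of *SMAD4*, by 1.19. Of the SMAD inhibitors and corepressors, 1 of 12 in H82, 1 of 12 in H524, 1 of 12 in H69, 3 of 11 in COR-L88 and 4 of 8 in KP1 rose, 1 fell in H82 and 3 fell in H69, with medians of 0.08, -0.01, 0.04, 0.83 and 1.26, beside the same shares of all genes. *TGIF1*, a corepressor, rose by 1.12 in H82 and 1.11 in H524, and *Tgif1* by 2.33 in KP1. *SMAD6*, the other inhibitory SMAD, rose by 5.26 in COR-L88 and fell by 1.33 in H69, and *Pmepa1* rose by 2.31 in KP1. The ubiquitin ligase *NEDD4L* fell by 2.28 in H82 and 2.51 in H69 and rose by 1.48 in COR-L88, while in H69 *SMURF1* rose by 1.31 and the SMAD phosphatase *PPM1A* fell by 1.67.

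Of the genes known as transcriptional targets of TGF-β, 10 of 13 in H82, 9 of 13 in H524, 10 of 14 in H69, 9 of 10 in COR-L88 and 5 of 7 in KP1 of those tested rose, and 2 fell, both in H69, with medians of 2.94, 1.53, 2.43, 2.53 and 3.01 in the same order, beside 14.7%, 11.4%, 21.4%, 15.3% and 9.09% of all genes higher and 20.4% lower in H69. *TAGLN*, a smooth muscle actin-binding protein, rose by 8.25 in H82 and 8.49 in H69, *CTGF* by 8.12 in H82 and 3.66 in COR-L88, and *COL1A1* by 10.10 in H69 and 4.42 in H524. Fibronectin (*FN1*) rose in all 5 lines, by 8.96 in H524, 4.20 in COR-L88 and 7.20 (*Fn1*) in KP1. *Lox* rose by 4.81 in KP1. The members of this list that fell were *BHLHE40*, a repressor that also responds to hypoxia, by 3.46, and the cell cycle inhibitor *CDKN1A*, by 2.09, both in H69. In COR-L88 6 of 10 were higher with TAS1440 alone than with GSI (all genes, 10.4%), and in H524 1 of 13 rose with *REST* (all genes, 1.28%). Genes of these lists, too, could pass the filter through the treated libraries alone. These target genes belong also to other EMT programs, and several are fibroblast genes, whose list moved with them as given above. The part of TGF-β signaling in their change was not tested.

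Of the related BMP and activin branch, 2 of 12 in H82, 0 of 10 in H524, 2 of 11 in H69, 3 of 10 in COR-L88 and 2 of 7 in KP1 were higher, and 2, 1, 4 and 1 were lower in H82, H524, H69 and COR-L88, with medians of 0.31, -0.07, -0.21, 0.23 and 0.28. Over all genes 14.7%, 11.4%, 21.4%, 15.3% and 9.09% were higher and 12.4%, 7.19%, 20.4%, 7.46% and 9.70% lower. *SMAD9*, a BMP-regulated SMAD, fell by 4.17 in H82, 1.28 in H524 and 3.38 in H69. *ACVR2B*, a type II activin receptor, fell by 2.14 in H82, 2.48 in H69 and 1.78 in COR-L88, and the type I receptor *ACVR1* rose by 2.63 in H69 and 1.20 in COR-L88. *INHBA*, which encodes the subunit of activin A, rose by 1.67 in H82 and 4.81 in H69 and *Inhba* by 3.56 in KP1, and its antagonist follistatin (*FST*) rose by 1.10 in H82, 2.03 in COR-L88 and 1.71 (*Fst*) in KP1 and fell by 1.11 in H69.

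Across the 20 human group means, the genes most like each member were found among 15888 genes by Pearson *r*, a description over groups that share lines, libraries and treatments. For the ligands these were *SLC36A1* (0.88), *C11orf24* (0.87) and *COL21A1* (0.84) for *TGFB1*, *ZNF347* (0.94), *CCDC122* (0.92) and *KRT18* (0.91) for *TGFB2* and *S1PR3* (0.93), *ADAMTS4* (0.93) and *TNN* (0.92) for *TGFB3*. The receptors gave *GSKIP* (0.80), *SPAST* (0.79) and *GMFB* (0.77) for *TGFBR1*, *PRSS23* (0.95) and *FAS* (0.93) for *TGFBR2* and *MEIS3P1* (0.90), *IL34* (0.88) and *TPP1* (0.88) for *TGFBR3*. The SMADs gave *STAU2* (0.78), *BAIAP2L1* (0.77) and *C18orf32* (0.76) for *SMAD2*, *EHBP1L1* (0.94), *LGALS1* (0.90) and *LPIN3* (0.88) for *SMAD3* and *KITLG* (0.94), *R3HDM4* (0.93) and *ITPKB* (0.92) for *SMAD7*, and *TGFBI* was most like *CSTB* (0.84), *IKBKE* (0.83) and *PTGER4* (0.82). The nearest genes of *TGFBR1* and *SMAD2*, which varied least, were less close than those of the others. No member was among the 3 nearest genes of another, and between members *r* ranged from -0.63 (*TGFB3* and *SMAD2*) to 0.75 (*TGFB2* and *SMAD7*, and *TGFB1* and *TGFB3*).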

How the data were processed

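RNA-Seq was made from 60 human and 9 mouse libraries. Per the submitters' processing notes the authors used cutadapt, STAR, RSEM and edgeR with hg19 and mm10 (versions not given in the sources used here), and the deposited values are log2 RPKM after TMM scaling, which a floor of 0 and the study's axes show to include a pseudocount of 1. Read counts were not used here, so depth is known only as relative size. Mouse and human values were normalized separately and were not compared. Groups came from the sample labels. Here limma 3.58.1 (R 4.3.3) was fitted per cell line, with all groups of the line sharing 1 estimate of the spread and a mean-variance trend, and to all human libraries for comparisons between lines. The fit was tested on simulated data. Alternatives were leaving out each library, fitting just the groups compared, median centring or quantile normalization of libraries, 0.1 as pseudocount, and testing every gene. Summaries used Python 3.11.15, pandas 2.3.3, numpy 2.4.6, scipy 1.17.1 and matplotlib 3.10.9. Gene positions are from GENCODE on GRCh37 and promoters from RefSeq on GRCh38.p14. The members, lists and tests were chosen with earlier results of these data known. Named genes were all members, their 3 most correlated genes over group means, the label-check genes and, of each pathway list, up to 2 called genes in each direction with the largest difference in a main comparison and no overlap of groups. *SMAD4* was named in addition. A few genes are not reported here and were left out of the list counts and sums.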

Additional observations from a re-analysis of the deposited data

Results flagged for a closer look

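In 27 cases the response of a member differed between cell lines or genotypes when the difference between both responses was tested itself (limma interaction term, adjusted *P* under 0.05 and at least 1 in size on the log2 scale). Groups of 3 libraries were too small for a check of single outlying libraries. Background shares, in either direction, stand beside each comparison, and the *N1ICD* comparisons between lines share libraries.

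*REST* KO minus intact H82 cells (background 12.9%) gave 1.96 for *TGFB1*, 1.08 for *TGFB3*, -1.22 for *SMAD2* and -1.24 for *SMAD3*. *STING* KO minus intact H82 cells (7.12%) gave -3.03 for *TGFB2*. In H524 cells, *N1ICD* minus *REST* (15.6%) gave 1.69 for *TGFB1*, 2.01 for *TGFBR2*, 2.18 for *SMAD3*, 1.71 for *SMAD7* and -2.36 for *TGFBI*. In COR-L88 cells, *STING* KO minus intact on TAS1440 (4.23%) gave -1.38 for *TGFB2* and -5.48 for *TGFBI*. Between lines, the *N1ICD* response of H69 minus that of H82 (43.1%) gave 4.91 for *TGFB1*, -6.07 for *TGFB2*, 3.65 for *TGFB3*, -1.21 for *TGFBR1*, -1.11 for *SMAD2* and -1.25 for *SMAD7*. H69 minus H524 (36.8%) gave 1.34 for *TGFB1*, 2.01 for *TGFB3*, -1.48 for *SMAD7* and 6.55 for *TGFBI*. H524 minus H82 (19.7%) gave 3.58 for *TGFB1*, -5.47 for *TGFB2*, 1.64 for *TGFB3*, 1.55 for *SMAD3* and -6.33 for *TGFBI*. Background shares of this size between lines mean that a large part of all genes responded differently, and the count of members past the threshold is read against them.

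Library 4, uninduced H82 *N1ICD* cells, lay closest to parental cells over all genes. Without it the H82 responses of *TGFB2* and *TGFBI* were 5.86 and 2.91.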

How the results depend on the processing

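Over a subset of 210 single tests of the members, 979 values under the other settings kept their direction and their side of the threshold, 24 lost a call, 36 gained one and 11 changed sign, and without 1 library the numbers were 1402, 49, 31 and 24. Tests outside this subset gained calls as well. No called value in the subset changed sign. Counts of members called that moved by over 1.5 times were the following, and the cause was not tested. With a pseudocount of 0.1 they were 6 (not 3) for doxycycline in H82 *STING* KO cells, 3 (not 0) for *REST* KO against intact H82 without doxycycline, 3 (not 1) for uninduced against parental H82, 2 (not 1) for doxycycline in H524 *REST* cells, 2 (not 1) for uninduced H524 *REST* against parental cells, 2 (not 1) for *STING* KO against intact COR-L88 on TAS1440, 5 (not 2) for H524 against H82, 7 (not 4) for H69 against H82, 5 (not 3) for COR-L88 against H69 and 2 (not 1) for the H82 *STING* KO difference of responses. Quantile normalization gave 0 for uninduced against parental H82, 0 for H524 *REST* with doxycycline and 1 (not 2) for TAS1440 with GSI against DMSO in COR-L88. Without the filter, where more genes are adjusted over, both H524 *REST* comparisons gave 0, and with only the compared groups uninduced H524 *N1ICD* against parental cells gave 0 (not 2).

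Without 1 library at a time the counts ranged from 0 to 1 for *REST* KO without doxycycline, 0 to 2 for uninduced against parental H82, 2 to 4 and 1 to 2 for *STING* KO against intact H82 with and without doxycycline, 1 to 2 for the H82 *STING* KO difference of responses, 2 to 3 for *REST* KO with doxycycline, 2 to 3 for uninduced H524 *N1ICD* against parental cells, 1 to 2 for uninduced against parental H69, 1 to 2 for TAS1440 with GSI against DMSO, 3 to 5 for TAS1440 against TAS1440 with GSI, 1 to 3 for *STING* KO on TAS1440 and 2 to 3 for TAS1440 in *STING* KO cells. The call in each H524 *REST* comparison was lost when any 1 of its 6 libraries was left out. Pairs of untreated lines gave 2 to 3 for H524 against H82 and 3 to 4 for H69 against H82. TAS1440 gave 3 to 4 in KP1.

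Among the 210 tests, the values that changed sign were uncalled and near 0. Median centring gave, for doxycycline in H82, -0.050 for *TGFB3* and -0.044 for *TGFBR1*, -0.029 for *SMAD3* in *REST* KO cells, -0.011 for *SMAD7* in H69, -0.10 for *TGFBR3* for TAS1440 against GSI, and 0.028 for *TGFB1* in the COR-L88 *STING* KO difference. Quantile normalization gave -0.33, -0.014, -0.022 and -0.11 for the first 3 and for *TGFBR3*, and a pseudocount of 0.1 gave -0.074 for *TGFBI* in H69 minus H82. Without 1 library, *TGFB3*, *TGFBR1* and *SMAD2* in H82 ranged over -0.077 to 0.081, -0.073 to 0.095 and -0.014 to 0.40, *SMAD3* in *REST* KO cells over -0.036 to 0.11, *SMAD2* in H524 over -0.12 to 0.021, *TGFBR1* in *N1ICD* against *REST* over -0.24 to 0.032, *SMAD7* and *TGFB2* in H69 over -0.057 to 0.090 and -0.033 to 0.55, *TGFBR3* against GSI over -0.018 to 0.11, *TGFBI* in COR-L88 *STING* KO over -0.14 to 1.36, *TGFBI* in the *REST* KO difference over -0.21 to 0.73, *TGFB1* in the COR-L88 difference over -0.33 to 0.17 and *TGFBI* in H69 minus H82 over -0.081 to 0.65.

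Median centring moved the median of all genes by -0.14 to 0.14 over 37 comparisons and quantile normalization by -0.15 to 0.12. Over all genes, calls went from 867 to 1311 for *REST* KO without doxycycline, from 36 to 95 for uninduced H524 *REST* cells and from 193 to 372 for *STING* KO on DMSO with a pseudocount of 0.1, from 36 to 19 without the filter for the H524 comparison, and from 891 to 321, 1651 to 548 and 193 to 113 with only the compared groups for uninduced against parental H82 and H524 and for *STING* KO on DMSO. In the COR-L88 *STING* KO difference of responses, 121 higher and 435 lower became 176 and 332 with median centring and 195 and 356 with quantile normalization. No paired analysis was possible because the numbers in the human titles are each used once and the mouse numbers, which start again from 1, name other libraries. Absolute read depth was not analysed here, so the precision of values near 0 is known only from the spread of libraries.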
